A study of Homo sapiens with 14 samples.

Results

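The genes described here build, move material within or regulate the primary cilium: 35 genes named by symbol among the 60683 gene rows of each count table, all of them found there. They fall by role into 11 subunits of the intraflagellar transport complex IFT-B, 3 of IFT-A, 2 of the retrograde motor dynein-2, 6 BBSome subunits with the GTPase ARL6 that recruits them, the chaperonin-like pair BBS10 and BBS12, 8 transition zone genes, and the transcription factors RFX2 and RFX3. The list names genes by what they are known to do, and it was chosen with earlier results of these data known. RNA was sequenced from A549, a human lung adenocarcinoma line, and SUM159, a human triple negative breast cancer line. A549 cells were left untreated or received 2 µM palbociclib, an inhibitor of CDK4 and CDK6, for 10 days, 0.5 µM indisulam, which brings the splicing factor RBM39 to a ubiquitin ligase, for 10 days, both drugs at these doses for 10 days (the combination), or 0.5 µM PF-06873600, which inhibits CDK2 besides CDK4 and CDK6, for 7 days. SUM159 cells were left untreated or received 0.5 µM PF-06873600 for 7 days. Each of the 7 groups had 2 libraries, described by the submitters as technical duplicates, so every error and p-value below measures the spread between such libraries and not between separate cultures. When the untreated cells were harvested is not given in the sources used here.

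The primary cilium is a single, non-motile projection that most vertebrate cells raise from the older centriole when they leave the cell cycle, and it is taken down again before division. Its shaft is built and served by intraflagellar transport, in which IFT-B trains drawn by kinesin-2 carry cargo to the tip, and IFT-A with dynein-2 brings material back to the base. The BBSome carries membrane proteins out of the cilium, the transition zone forms a gate at its base, and RFX factors bind the X-box, a palindrome found in the promoters of many of these genes. No cilia were counted in this experiment, so the values concern messenger RNA alone.

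Between 13060374 and 21149256 reads were counted on genes per library, and every one of the 35 genes had more than 3 reads in every library. Levels are given as CPM, the count of a gene scaled to the total of these reads. Against the identity of the lines, all 6 epithelial markers examined were lower and all 6 mesenchymal markers higher in untreated SUM159 than in untreated A549. The lung epithelial markers NKX2-1, SFTPB, SFTPC and SCGB1A1 summed to between 0.0603 and 0.772 CPM in every library, A549 included. Since cilia and the cell cycle are linked, a list of 10 proliferation genes was followed beside the cilium genes. It summed to 707 and 753 CPM in untreated A549, 676 and 650 with palbociclib, 608 and 622 with indisulam, 167 and 165 with the combination and 697 and 723 with PF-06873600. In SUM159 it summed to 3033 and 3149 CPM untreated against 1282 and 1278 with PF-06873600. The near-equal sums with PF-06873600 in A549 cover opposite changes. By the test described below, 4 of the 10 genes were higher there and 5 lower, beside 28.5% and 27.8% of all genes. The part of these changes in the values below was not tested. In bulk RNA, fewer cells that express a gene and less of its RNA per cell cannot be told apart. Exons of 19 of the 35 genes overlap those of another annotated gene, 8 on the same strand and 17 on the opposite strand. The strand setting of the counting is not given in the sources used here, so the overlap of each of the 19 is given beside the gene below.

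In A549, the cilium genes moved down more often than up under indisulam, the combination and PF-06873600, and in SUM159 they moved in both directions. With palbociclib alone, 1 of 35 was higher (RPGRIP1L) and 3 were lower (TCTN2, RFX2 and RFX3) than in untreated cells by edgeR's quasi-likelihood test at a Benjamini-Hochberg adjusted p under 0.05, beside 8.3% of all 15780 genes tested that were higher and 7.4% that were lower. With indisulam, 4 were higher and 14 lower, that is 11.4% and 40% of the members, beside 28% and 17.5% of all genes. With the combination, 3 were higher and 18 lower, 8.57% and 51.4%, beside 35.1% and 30% of all genes. With PF-06873600 in A549, 3 were higher and 17 lower, 8.57% and 48.6%, beside 28.5% and 27.8% of all genes. The median log2 fold change of the members was -0.07, -0.17, -0.20 and -0.28 in these comparisons, while the median over all genes tested was -0.01, 0.08, 0.05 and -0.01. These 4 comparisons share the same 2 untreated libraries and are therefore not independent of each other. The shares of all genes depend on the filter, and those given here include genes with low counts. Among 11768 genes with a mean of at least 50 counts, 3505 were higher and 2438 lower with indisulam, and 4091 and 4135 with the combination. With PF-06873600 in A549 the numbers were 3679 and 3767. Single libraries moved some of the counts of members. With palbociclib, 0 to 3 members were higher and 1 to 6 lower when 1 library was left out. With indisulam, 7 members were lower without indisulam replicate 1 and 5 without indisulam replicate 2, and 5 when only the 2 groups compared entered the fit. Under every alternative setting tried, 3 of the 14 members lower with indisulam, 11 of the 18 lower with the combination and 14 of the 17 lower with PF-06873600 stayed called.

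Against the single drugs, the combination left 4 members higher and 13 lower than palbociclib did, beside 33.5% and 26.9% of all genes. Compared with indisulam, 2 members were higher and 9 lower in combination-treated cells, beside 22% and 23.9% of all genes, and the 9 of 35 (25.7%) is close to that background. The test of the interaction, which asks whether the combination departed from the sum of the 2 single effects on the log2 scale, passed for 1 member in the higher direction (TCTN2) and 3 in the lower (IFT81, IFT88 and RFX3), beside 10.7% and 14.5% of all genes. In SUM159, PF-06873600 left 11 members higher and 13 lower, 31.4% and 37.1%, beside 38.1% and 35.6% of the 15055 genes tested, shares close to the background, with a median of -0.03 against 0.02 over all genes, and 10 of the 11 and 6 of the 13 stayed called under every alternative. With only 2 libraries a group, an exact permutation test of a single gene cannot go below p = 0.33, so all calls rest on the spread that edgeR estimates across genes. That spread is pooled over groups, while the untreated libraries of each line differed from each other more than those of any treated group.

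**Figure D1:**
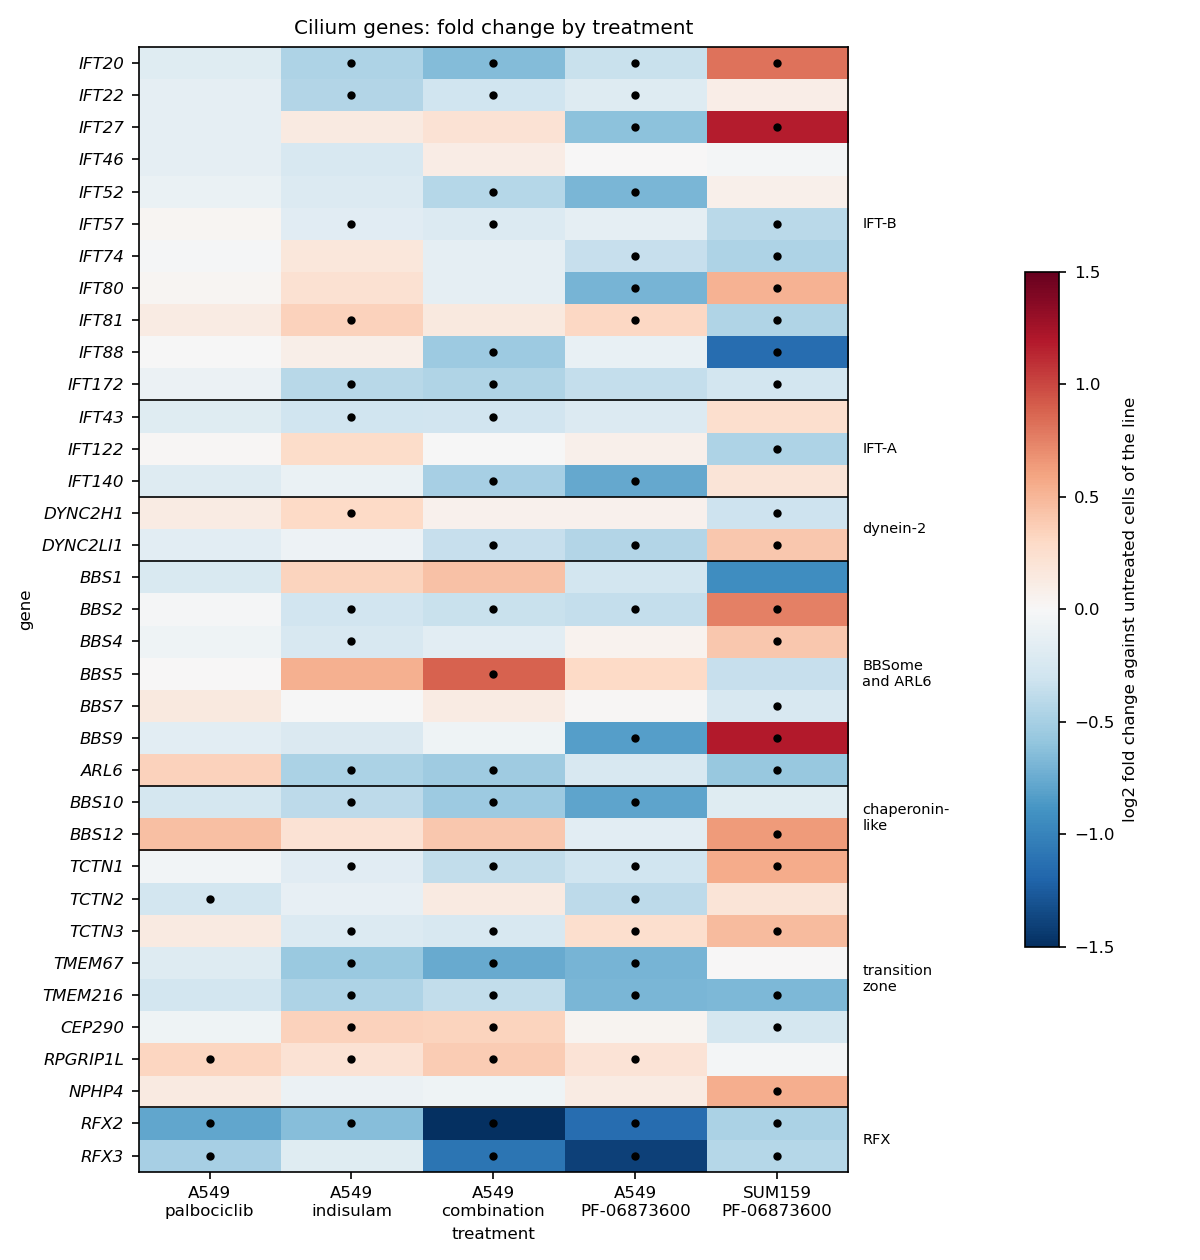
Log2 fold change of each of the 35 genes (rows, grouped by role) against untreated cells of the same line for 5 treatments (columns). Red is higher, blue is lower, and a black dot marks an adjusted p under 0.05. RFX2 is blue and dotted in all 5 columns, and IFT20, IFT27, IFT80, DYNC2LI1, BBS2, BBS9 and TCTN1 are blue with PF-06873600 in A549 and red in SUM159.

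RFX2 and RFX3, winged-helix activators of ciliary genes, had the lowest log2 fold changes of the 35 under the combination and under PF-06873600 in A549. RFX2 (ENSG00000087903, chromosome 19, 5993164 to 6199572, minus strand, on GRCh38 as are all positions here) stood at 10.5 and 8 CPM in the untreated A549 libraries, 5.42 and 5.37 with palbociclib, 5.46 and 6.41 with indisulam, 2.84 and 3.73 with the combination and 3.83 and 4.51 with PF-06873600. It was at 9.95 and 9.96 CPM in untreated SUM159 libraries and 7.13 and 7.23 with PF-06873600. Every treated library lay below both untreated libraries of its line, and the combination libraries were the lowest of all. Relative to untreated cells, the log2 fold change was -0.78 ± 0.18 (SE, adjusted p = 0.0078) with palbociclib, -0.64 ± 0.17 (SE, adjusted p = 0.00805) with indisulam, -1.49 ± 0.19 (SE, adjusted p = 8.66e-06) with the combination and -1.14 ± 0.18 (SE, adjusted p = 0.000105) with PF-06873600 in A549. In SUM159 it was -0.47 ± 0.13 (SE, adjusted p = 0.00456), which DESeq2 did not call (-0.48). RFX2 was the one member lower in all 5 comparisons of a drug with untreated cells, beside 1.69% of the 13607 genes tested in both lines. The combination also lay below each single drug, at -0.71 ± 0.21 (SE, adjusted p = 0.00898) against palbociclib and -0.85 ± 0.20 (SE, adjusted p = 0.00364) against indisulam, while the interaction was -0.07 ± 0.27 (SE, adjusted p = 0.894). Its untreated A549 libraries differed from each other, and the indisulam call no longer passed without untreated replicate 1 (log2 -0.43) or indisulam replicate 1 (-0.53), nor the palbociclib call without palbociclib replicate 2 (-0.77), nor those against either single drug without combination replicate 1 (-0.53 and -0.67). RFX2 had between 40 and 165 reads per library, and its exons share 187 bases with a pseudogene on the same strand and 161 with genes on the opposite strand, among them ACSBG2.

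RFX3 (ENSG00000080298, chromosome 9, 3218297 to 3526004, minus strand) was at 29.9 and 31.1 CPM in the untreated A549 libraries, 20.9 and 22.3 with palbociclib, 27.1 and 26.9 with indisulam, 14.7 and 13.7 with the combination and 13.1 and 10.2 with PF-06873600. Its level was 7.78 and 7.77 CPM in untreated SUM159 libraries and 6.02 and 5.58 with PF-06873600. The palbociclib, combination and PF-06873600 libraries lay below the untreated ones without overlap, and the indisulam libraries lay only slightly below them. The log2 fold change was -0.50 ± 0.10 (SE, adjusted p = 0.00395) with palbociclib, -0.18 ± 0.10 (SE, adjusted p = 0.162) with indisulam, -1.10 ± 0.11 (SE, adjusted p = 3.98e-07) with the combination and -1.40 ± 0.11 (SE, adjusted p = 7.24e-08) with PF-06873600 in A549. Against the single drugs, the combination gave -0.61 ± 0.11 (SE, adjusted p = 0.000248) relative to palbociclib and -0.93 ± 0.11 (SE, adjusted p = 6.95e-06) relative to indisulam. The interaction, -0.43 ± 0.15 (SE, adjusted p = 0.0448), passed by a narrow margin and was lost when any of 7 libraries was left out, with values from -0.48 to -0.38, by DESeq2 (-0.41), without a filter and with the replicate block (-0.43 in both). In SUM159 the log2 fold change with PF-06873600 was -0.43 ± 0.15 (SE, adjusted p = 0.0164), which did not pass by DESeq2 (-0.43) or without PF-06873600 replicate 2 (-0.37). Between the lines, untreated SUM159 cells held less RFX3 than untreated A549 cells, with a log2 difference of -1.97 ± 0.11 (SE, adjusted p = 4.2e-12), whereas that of RFX2 was 0.10 ± 0.15 (SE, adjusted p = 0.532).

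**Figure D2:**
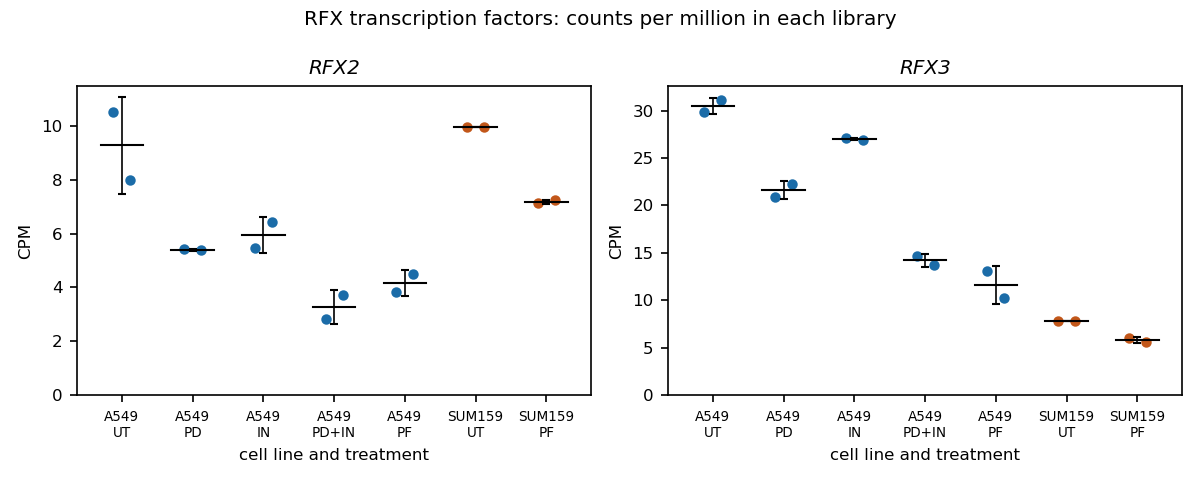
CPM of RFX2 and RFX3 in each of the 14 libraries, by cell line and treatment (UT untreated, PD palbociclib, IN indisulam, PF PF-06873600). Points are libraries, horizontal bars group means and error bars SD (n = 2). Both genes are lower with the combination and with PF-06873600 than in untreated A549 cells, RFX2 at 2.84 and 3.73 CPM with the combination against 10.5 and 8 CPM untreated.

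The promoters were then searched for the X-box that RFX factors bind. The search took the motif arms GTTNCC and GGNAAC in this order, 0 to 3 bases apart, which reads alike on both strands, over 250 bases before to 50 after the RefSeq start of each gene, and counted mismatches in the 10 fixed letters. Of the 35 genes, 30 matched an entry of the RefSeq promoter table by symbol, and BBS9, TMEM67, RFX2, IFT22 and TCTN2 did not. A full match was found for 4 of the 30, 13.3%, namely ARL6, IFT122, TCTN1 and TCTN3, beside 0.905% of 27305 genes with a promoter entry and 1.07% of the 15843 protein-coding ones. At most 1 mismatch was found for 9 members, 30%, beside 6.75% and 7.74%, the others being DYNC2LI1, IFT172, IFT57, IFT74 and TMEM216. At most 2 mismatches were found for 19 members, 63.3%, a looser limit that 39.5% of all genes and 42.7% of protein-coding genes also met. The windows around the site are shown for the 3 genes with at most 1 mismatch among those whose levels are given library by library, from 80 bases before the site (or the window's edge) to 80 after it or to 30 bases past the start. All are printed 5′ to 3′ on the gene's strand of GRCh38.p14, at chr3:97764654-97764787 (plus strand), chr10:95694050-95694177 (minus strand) and chr11:61392507-61392616 (plus strand), and the capitals mark the matched site with its spacer.
ARL6: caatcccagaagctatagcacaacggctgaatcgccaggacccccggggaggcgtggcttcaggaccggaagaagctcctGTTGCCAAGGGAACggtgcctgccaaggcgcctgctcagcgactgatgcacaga
TCTN3: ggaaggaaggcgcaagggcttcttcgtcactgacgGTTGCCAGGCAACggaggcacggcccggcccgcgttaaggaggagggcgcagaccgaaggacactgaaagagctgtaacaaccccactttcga
TMEM216: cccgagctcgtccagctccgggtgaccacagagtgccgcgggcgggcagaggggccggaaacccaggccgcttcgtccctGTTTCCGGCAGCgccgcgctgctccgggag
The sites of ARL6 and TCTN3 carry both arms in full with spacers of 2 bases and 1 base, and begin 24 and 215 bases before the RefSeq start, while that of TMEM216 has 1 mismatch and no spacer and begins at the RefSeq start itself. The gene positions given below come from GENCODE, whose starts differ, and by these all 3 sites lie inside the gene. Among the 9 members with at most 1 mismatch, none was higher and 7 were lower with the combination, with a median log2 fold change of -0.35, beside 35.1% higher and 30% lower of all genes. Among the other 21 with an entry, 3 were higher and 8 lower, with a median of -0.07. These 21 include RFX3 itself. Of the 7 lower members with a close match, only TCTN1 stayed called under every alternative tried. Of the 8 without one, all but IFT43 did (IFT20, IFT52, IFT88, IFT140, BBS2, BBS10 and RFX3). With PF-06873600, the 9 held 1 higher and 4 lower in A549 and 3 higher and 6 lower in SUM159, and the 21 held 2 higher and 8 lower in A549 and 7 higher and 6 lower in SUM159, beside 28.5% higher and 27.8% lower of all genes in A549 and 38.1% and 35.6% in SUM159. These are counts of matched letters in a short window, and the difference between the 2 sets was not tested.

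Among the 11 IFT-B genes, which make up the anterograde trains, none passed the test with palbociclib. With the combination 6 were lower and none higher, 6 were lower and 1 higher after PF-06873600 in A549, and for SUM159 the numbers were 3 higher and 5 lower. Of all genes, 30% were lower with the combination, 27.8% with PF-06873600 in A549 and 35.6% in SUM159, where 38.1% were higher, so the SUM159 counts lie near the background. Their summed level was 413 and 422 CPM in untreated A549, 360 and 378 with the combination and 369 and 368 with PF-06873600, and it was 210 and 216 CPM in untreated SUM159 against 205 and 208 with PF-06873600. In SUM159 the sum thus changed little while single subunits rose and fell.

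IFT20, a small IFT-B subunit that also sits at the Golgi (ENSG00000109083, chromosome 17, 28328325 to 28335489, minus strand), was at 53.2 and 56.7 CPM in the untreated A549 libraries, 47.9 and 48.8 with palbociclib, 39.9 and 40 with indisulam, 36 and 34 with the combination and 43.8 and 43.5 with PF-06873600. In the other line it was at 17.4 and 19.2 CPM in untreated SUM159 libraries and 32.8 and 31.9 with PF-06873600. All 8 treated A549 libraries lay below the untreated ones, the combination libraries lowest, and both treated SUM159 libraries lay above theirs. By edgeR, the log2 fold change was -0.46 ± 0.07 (SE, adjusted p = 0.000101) with indisulam, -0.65 ± 0.07 (SE, adjusted p = 1.48e-06) with the combination and -0.33 ± 0.07 (SE, adjusted p = 0.000937) with PF-06873600 in A549, and 0.82 ± 0.09 (SE, adjusted p = 5.65e-07) in SUM159. With palbociclib it was -0.18 ± 0.07 (SE, adjusted p = 0.0871) and did not pass. Exons of IFT20 overlap TMEM97 on the opposite strand by 361 bases.

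IFT27, a Rab-like GTPase of the IFT-B complex that helps the BBSome leave the cilium (ENSG00000100360, chromosome 22, 36758202 to 36776256, minus strand), was at 25.4 and 22.1 CPM in the untreated A549 libraries, 19.1 and 24 with palbociclib, 27.4 and 24.9 with indisulam, 26.6 and 28.8 with the combination and 14.7 and 16.3 with PF-06873600. It was measured at 4.52 and 6.83 CPM in untreated SUM159 libraries and 11.6 and 14 with PF-06873600. The PF-06873600 libraries were the lowest of A549, and in SUM159 they lay above the untreated ones. The log2 fold change with PF-06873600 was -0.61 ± 0.12 (SE, adjusted p = 0.000663) in A549 and 1.18 ± 0.17 (SE, adjusted p = 1.8e-05) in SUM159. Against untreated cells the combination gave 0.22 ± 0.11 (SE, adjusted p = 0.0997), and against palbociclib 0.35 ± 0.11 (SE, adjusted p = 0.0156), a call lost with TMM factors (0.26), by DESeq2 (0.31), and without palbociclib replicate 1 (0.21) or combination replicate 2 (0.30). A long non-coding RNA gene overlaps IFT27 on the opposite strand by 955 bases.

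IFT81, which with IFT74 forms the tubulin-binding module of IFT-B (ENSG00000122970, chromosome 12, 110124335 to 110218793, plus strand), went the other way. It was at 69.5 and 68.5 CPM in the untreated A549 libraries, 73.2 and 76.6 with palbociclib, 85.1 and 91.2 with indisulam, 72.9 and 79.9 with the combination and 85.6 and 85.7 with PF-06873600, and at 22.5 and 20.2 CPM in untreated SUM159 libraries and 15.9 and 15.5 with PF-06873600. All treated A549 libraries lay above the untreated ones, and both treated SUM159 libraries below theirs. The log2 fold change was 0.35 ± 0.07 (SE, adjusted p = 0.000631) with indisulam and 0.31 ± 0.07 (SE, adjusted p = 0.00113) with PF-06873600 in A549, and -0.45 ± 0.10 (SE, adjusted p = 0.000777) in SUM159, whereas with the combination it was 0.15 ± 0.07 (SE, adjusted p = 0.0677). The interaction of the 2 drugs was -0.33 ± 0.09 (SE, adjusted p = 0.0209), lost by DESeq2 and without palbociclib replicate 2 (log2 -0.29), indisulam replicate 2 (-0.27) or combination replicate 1 (-0.26). Its partner IFT74, also a tubulin-binding subunit, was lower with PF-06873600 in both lines, at -0.35 ± 0.10 (SE, adjusted p = 0.0103) in A549 and -0.46 ± 0.13 (SE, adjusted p = 0.00593) in SUM159. The IFT74 call in A549 was lost without PF-06873600 replicate 2 (-0.25) and that in SUM159 without untreated replicate 1 (-0.26). PLAA overlaps IFT74 on the opposite strand by 108 exon bases.

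IFT88, a core IFT-B subunit without which cilia are short or missing in the mouse (ENSG00000032742, chromosome 13, 20567138 to 20691444, plus strand), was at 14.7 and 15 CPM in the untreated A549 libraries, 14.2 and 15.3 with palbociclib, 16 and 15.7 with indisulam, 9.79 and 10.5 with the combination and 12.7 and 14.6 with PF-06873600. It was also at 16.1 and 14.6 CPM in untreated SUM159 libraries and 6.72 and 7.19 with PF-06873600. The combination libraries were the lowest of A549, and in SUM159 the treated libraries lay below the untreated ones by far more than either pair differed. With the combination the log2 fold change was -0.55 ± 0.11 (SE, adjusted p = 0.00063), with palbociclib -0.01 ± 0.11 (SE, adjusted p = 0.987) and with indisulam 0.09 ± 0.11 (SE, adjusted p = 0.511), so that the interaction was -0.63 ± 0.15 (SE, adjusted p = 0.00793). That interaction was called without any 1 of the 8 libraries and was not called by DESeq2 (log2 -0.61). With PF-06873600 IFT88 was at -0.11 ± 0.11 (SE, adjusted p = 0.387) in A549 and -1.14 ± 0.12 (SE, adjusted p = 8.08e-07) in SUM159, the lowest value of the 35 in that line.

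Of the other IFT-B genes, all but IFT46 passed in at least 1 comparison of a drug with untreated cells. IFT52, a core subunit, was lower with the combination, -0.43 ± 0.10 (SE, adjusted p = 0.00142), and with PF-06873600 in A549, -0.68 ± 0.10 (SE, adjusted p = 4.9e-05), and at 0.08 ± 0.10 (SE, adjusted p = 0.52) in SUM159. IFT80, a subunit of the outer part of the complex, was lower with PF-06873600 in A549, -0.70 ± 0.11 (SE, adjusted p = 6.13e-05), and higher in SUM159, 0.52 ± 0.13 (SE, adjusted p = 0.00167). Exons of IFT80 share 1953 bases with another protein-coding gene on the same strand and 243 with SMC4 on the opposite strand. Reads on same-strand overlaps, here and in the other genes, could be set aside as ambiguous. IFT22, a Rab-like GTPase, was lower with indisulam, -0.44 ± 0.08 (SE, adjusted p = 0.000343), with the combination, -0.30 ± 0.08 (SE, adjusted p = 0.00368), and with PF-06873600 in A549, -0.19 ± 0.08 (SE, adjusted p = 0.046). The last of these calls held in only 2 of 10 alternatives, being lost with TMM factors, by DESeq2, without a filter, with only the groups compared, with the replicate block (-0.19) and without any 1 of 3 libraries (-0.20 to -0.13). The long non-coding RNA gene EMSLR overlaps IFT22 on the opposite strand over 3887 of its 6585 exon bases. IFT57 and IFT172, both of the outer part, were lower with indisulam (log2 -0.17 and -0.42), with the combination (-0.20 and -0.45) and with PF-06873600 in SUM159 (-0.41 and -0.28). The IFT172 calls rested on single libraries: without untreated A549 replicate 1 they were lost at -0.14 with indisulam and -0.16 with the combination, and without untreated SUM159 replicate 2 at -0.10. They were lost as well without indisulam replicate 2 (-0.27), either combination library (-0.40 and -0.49) or SUM159 PF-06873600 replicate 1 (-0.22), with only the groups compared (-0.42 with indisulam) and, in SUM159, by DESeq2 (-0.29). The IFT57 call with indisulam was lost in 5 of 10 alternatives, among them the replicate block (-0.17) and leaving out untreated replicate 2 (-0.14) or indisulam replicate 1 (-0.11), and that with the combination without either combination library (-0.19 and -0.21), while the SUM159 call held under every alternative. IFT172 shares 102 exon bases with a small nuclear RNA gene on the same strand and 55 with KRTCAP3 on the opposite strand. IFT46, a core subunit, passed in no comparison of a drug with untreated cells, with log2 fold changes from -0.24 to 0.11.

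The 3 IFT-A genes and the 2 genes of dynein-2 serve the return journey. IFT140 was at 47.0 and 35.8 CPM in untreated A549 and at 24.8 and 23.9 with PF-06873600, below the untreated range. Its log2 fold change was -0.50 ± 0.11 (SE, adjusted p = 0.000855) with the combination and -0.77 ± 0.11 (SE, adjusted p = 3.27e-05) with PF-06873600 in A549, and 0.19 ± 0.15 (SE, adjusted p = 0.244) in SUM159. IFT140 shares 120 exon bases with another gene on the same strand and 392 with genes on the opposite strand, among them TELO2. IFT43, which shares 85 exon bases with TTLL5 on the same strand, was lower with indisulam (-0.30) and the combination (-0.29). Neither call passed with only the groups compared (-0.30 and -0.29), the first was lost without indisulam replicate 1 (-0.27) or 2 (-0.34), and the second by DESeq2 (-0.32) and without combination replicate 2 (-0.19). IFT122, which MBD4 overlaps on the opposite strand by 279 exon bases, passed against untreated cells only in SUM159, at -0.46 ± 0.09 (SE, adjusted p = 0.000406). DYNC2LI1, the light intermediate chain of the motor, was lower with the combination (-0.35 ± 0.11 (SE, adjusted p = 0.0125)) and PF-06873600 (-0.44 ± 0.11 (SE, adjusted p = 0.00431)) in A549 and higher with PF-06873600 in SUM159 (0.40 ± 0.13 (SE, adjusted p = 0.0105)). DYNC2H1, the heavy chain that produces force, was higher with indisulam (0.30 ± 0.11 (SE, adjusted p = 0.0351)) and lower with PF-06873600 in SUM159 (-0.31 ± 0.10 (SE, adjusted p = 0.0151)), and its level with the combination gave 0.06 ± 0.11 (SE, adjusted p = 0.641). The rise of DYNC2LI1 in SUM159 was lost by DESeq2 (0.40) and without PF-06873600 replicate 1 (0.38), and the fall of DYNC2H1 there without untreated replicate 2 (-0.09). In A549, the DYNC2LI1 calls were lost without combination replicate 1 (-0.25) and PF-06873600 replicate 2 (-0.31) respectively, and the DYNC2H1 call with indisulam held in only 3 of 10 alternatives (0.22 to 0.32 in those that lost it).

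The BBSome subunits and ARL6 summed to 105 and 108 CPM in untreated A549, 92.1 and 95.7 with the combination and 95.7 and 90.6 with PF-06873600, and to 100 and 99.8 CPM in untreated SUM159 against 119 and 120 with PF-06873600. Of the 7 genes, 1 was higher and 2 were lower with the combination, 2 were lower with PF-06873600 in A549, and in SUM159 it left 3 higher and 2 lower. Of all genes, 35.1% were higher and 30% lower with the combination, 27.8% lower with PF-06873600 in A549, and 38.1% higher and 35.6% lower in SUM159, so 2 of 7 is close to the background.

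BBS9, a scaffold subunit of the BBSome (ENSG00000122507, chromosome 7, 33109557 to 33877180, plus strand), was at 8.29 and 8.4 CPM in the untreated A549 libraries, 7.2 and 7.69 with palbociclib, 6.5 and 7.8 with indisulam, 8.37 and 7.59 with the combination and 4.82 and 4.58 with PF-06873600. Its level was also 6.45 and 8.02 CPM in untreated SUM159 libraries and 16.1 and 16.9 with PF-06873600. With PF-06873600 the libraries of A549 were the lowest and those of SUM159 the highest of all 14. Its log2 fold change was -0.83 ± 0.15 (SE, adjusted p = 3e-04) in A549 and 1.19 ± 0.13 (SE, adjusted p = 7.19e-07) in SUM159, and with the combination it was -0.07 ± 0.14 (SE, adjusted p = 0.691). BBS2, another subunit, took the same course at a smaller size, with -0.36 ± 0.09 (SE, adjusted p = 0.00235) in A549 and 0.76 ± 0.08 (SE, adjusted p = 1e-06) in SUM159, and was lower with the combination too, -0.33 ± 0.08 (SE, adjusted p = 0.00309). Exons of BBS2 overlap another protein-coding gene on the same strand by 1086 bases and OGFOD1 on the opposite strand by 498.

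BBS5, the subunit that binds phosphoinositides (ENSG00000163093, chromosome 2, 169479480 to 169506655, plus strand), was a low gene at 2.04 and 2.07 CPM in the untreated A549 libraries, 1.78 and 2.32 with palbociclib, 3.52 and 2.44 with indisulam, 3.97 and 3.6 with the combination and 2.6 and 2.47 with PF-06873600. It was at 6.09 and 6.14 CPM in untreated SUM159 libraries and 4.68 and 4.96 with PF-06873600. The combination libraries were the highest of A549, and 1 of the indisulam libraries came near to them. Relative to untreated cells, the log2 fold change was 0.88 ± 0.23 (SE, adjusted p = 0.00431) with the combination, the highest of the 35, and 0.87 ± 0.23 (SE, adjusted p = 0.00521) against palbociclib. DESeq2 did not call either (log2 0.85 and 0.83), and the gene had between 24 and 105 reads per library. Its exons share 998 bases with another protein-coding gene on the same strand.

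ARL6, the GTPase that brings the BBSome to membranes (ENSG00000113966, chromosome 3, 97764521 to 97801229, plus strand), was at 10.5 and 16.2 CPM in the untreated A549 libraries, 17.7 and 16.4 with palbociclib, 9.61 and 9.65 with indisulam, 8.65 and 9.85 with the combination and 12.6 and 10.1 with PF-06873600. Its values were 14.9 and 11.7 CPM in untreated SUM159 libraries and 8.24 and 9.6 with PF-06873600. The untreated A549 libraries differed widely from each other, the palbociclib libraries lay above both, and the indisulam and combination libraries below. Against palbociclib the combination gave -0.88 ± 0.17 (SE, adjusted p = 0.000528), without overlap, and this call held under every alternative tried. Against untreated cells it gave -0.53 ± 0.18 (SE, adjusted p = 0.018), a call lost without untreated replicate 2 (log2 -0.18) or combination replicate 1 (-0.44). In SUM159 the log2 fold change with PF-06873600 was -0.57 ± 0.14 (SE, adjusted p = 0.00185). An antisense RNA gene overlaps ARL6 by 163 bases.

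Of the other subunits, BBS4 was lower with indisulam (-0.24 ± 0.09 (SE, adjusted p = 0.0375)) and higher with PF-06873600 in SUM159 (0.41 ± 0.11 (SE, adjusted p = 0.00324)), and BBS7 was lower there (-0.24 ± 0.08 (SE, adjusted p = 0.0111)). The BBS4 call with indisulam held in only 4 of 10 alternatives, being lost without untreated replicate 2 (-0.20) or either indisulam library (-0.20 and -0.29), and that of BBS7 was lost by DESeq2 (-0.25) and without untreated replicate 1 (-0.19) or PF-06873600 replicate 2 (-0.20). HIGD2B overlaps BBS4 on the opposite strand by 4 exon bases. BBS1 had 5 to 36 reads per library. It shares 3311 exon bases with another protein-coding gene on the same strand and 1530 with genes on the opposite strand. BBS1 passed in no comparison, with log2 fold changes between -0.93 and 0.44 against untreated cells and standard errors up to 0.52. The chaperonin-like proteins BBS10 and BBS12 help the BBSome assemble. BBS10 was lower with indisulam (-0.39 ± 0.10 (SE, adjusted p = 0.00548)), the combination (-0.55 ± 0.10 (SE, adjusted p = 0.000267)) and PF-06873600 (-0.79 ± 0.10 (SE, adjusted p = 1.54e-05)) in A549, at 24.3 and 28.4 CPM untreated against 14.9 and 15.6 with PF-06873600. BBS12 passed against untreated cells only in SUM159, where PF-06873600 raised it by 0.64 ± 0.17 (SE, adjusted p = 0.00309).

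The 8 transition zone genes moved in both directions in every comparison of indisulam, the combination or PF-06873600 with untreated cells. Of them, 2 were higher and 4 lower with indisulam, with the combination and with PF-06873600 in A549, and for SUM159 the numbers were 3 and 2. Of all genes, 28% were higher and 17.5% lower with indisulam, 35.1% and 30% with the combination, 28.5% and 27.8% with PF-06873600 in A549, and 38.1% and 35.6% in SUM159, and the counts of higher genes with indisulam, with PF-06873600 in A549 and in SUM159 are close to these shares. TCTN1, TCTN2 and TCTN3 encode the tectonic proteins, a secreted and membrane-bound family at the ciliary gate. TCTN1 was at 116 and 113 CPM in untreated A549 and 91.8 and 85.5 with the combination, -0.37 ± 0.06 (SE, adjusted p = 7.25e-05), and it was lower with PF-06873600 in A549, -0.30 ± 0.06 (SE, adjusted p = 0.000602), but higher in SUM159, 0.56 ± 0.09 (SE, adjusted p = 3.44e-05). HVCN1 overlaps TCTN1 on the opposite strand by 724 exon bases.

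TCTN2 (ENSG00000168778, chromosome 12, 123671110 to 123708399, plus strand) was at 27.9 and 30.9 CPM in the untreated A549 libraries, 23.7 and 24.7 with palbociclib, 27.6 and 26.6 with indisulam, 32.3 and 31.9 with the combination and 22.5 and 22.2 with PF-06873600. It was at 15.5 and 17.2 CPM in untreated SUM159 libraries and 17.4 and 19.8 with PF-06873600. Palbociclib libraries lay below the untreated ones and combination libraries above them. The log2 fold change was -0.28 ± 0.08 (SE, adjusted p = 0.0354) with palbociclib, -0.12 ± 0.08 (SE, adjusted p = 0.273) with indisulam and 0.13 ± 0.08 (SE, adjusted p = 0.184) with the combination, and the interaction of 0.52 ± 0.12 (SE, adjusted p = 0.00445) was called under every alternative tried. The palbociclib call itself was lost by DESeq2 (-0.27), without a filter, with only the groups compared (-0.28 in both), and without untreated replicate 2 (log2 -0.20), palbociclib replicate 1 (-0.25) or palbociclib replicate 2 (-0.31). With PF-06873600 in A549 TCTN2 was lower, -0.39 ± 0.08 (SE, adjusted p = 0.00116). A long non-coding RNA gene overlaps it on the opposite strand by 319 bases.

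TCTN3 (ENSG00000119977, chromosome 10, 95659823 to 95694143, minus strand) was at 76.1 and 84.6 CPM in the untreated A549 libraries, 92.2 and 83.3 with palbociclib, 69 and 69.6 with indisulam, 69.3 and 66.9 with the combination and 95.7 and 95 with PF-06873600. It was also at 81.2 and 72.3 CPM in untreated SUM159 libraries and 103 and 109 with PF-06873600. PF-06873600 libraries were the highest of each line, and indisulam and combination libraries the lowest of A549. PF-06873600 gave 0.25 ± 0.07 (SE, adjusted p = 0.0077) in A549 and 0.47 ± 0.06 (SE, adjusted p = 9.24e-06) in SUM159, so that TCTN3 was the one member higher with it in both lines. The combination gave -0.24 ± 0.07 (SE, adjusted p = 0.00867), lost without untreated replicate 2 (log2 -0.16) or combination replicate 2 (-0.21), and against palbociclib -0.36 ± 0.07 (SE, adjusted p = 0.000461), called under every alternative tried.

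TMEM67, the receptor-like meckelin of the gate, was at 13.7 and 13.2 CPM in the untreated A549 libraries, 11.1 and 12.4 with palbociclib, 10 and 8.19 with indisulam, 7.02 and 8.75 with the combination and 7.73 and 8.72 with PF-06873600. Its level was 11.9 and 10 CPM in untreated SUM159 libraries and 11.3 and 10.8 with PF-06873600. Every treated A549 library lay below both untreated ones, and the SUM159 groups overlapped. By edgeR, the log2 fold change was -0.56 ± 0.14 (SE, adjusted p = 0.00468) with indisulam, -0.76 ± 0.14 (SE, adjusted p = 0.000291) with the combination and -0.70 ± 0.14 (SE, adjusted p = 0.000738) with PF-06873600 in A549, and 0.01 ± 0.12 (SE, adjusted p = 0.943) in SUM159. The indisulam call did not pass without indisulam replicate 2 (log2 -0.42).

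TMEM216, a small membrane protein of the same module (ENSG00000187049, chromosome 11, 61392393 to 61398866, plus strand), was at 9.99 and 12.6 CPM in the untreated A549 libraries, 9.35 and 9.27 with palbociclib, 8.92 and 7.53 with indisulam, 8.93 and 8.56 with the combination and 7.5 and 6.62 with PF-06873600. It was found at 8.56 and 8.2 CPM in untreated SUM159 libraries and 5.14 and 5.34 with PF-06873600. The PF-06873600 libraries were the lowest of each line. The log2 fold change with PF-06873600 was -0.68 ± 0.15 (SE, adjusted p = 0.00121) in A549 and -0.67 ± 0.15 (SE, adjusted p = 0.000718) in SUM159. Indisulam gave -0.46 ± 0.14 (SE, adjusted p = 0.018) and the combination -0.37 ± 0.14 (SE, adjusted p = 0.0343), calls that rested on untreated replicate 2, without which they were -0.28 and -0.19. The combination call was also lost by DESeq2, with only the groups compared and without combination replicate 1 (-0.40) or 2 (-0.34). The indisulam call was also lost with only the groups compared (-0.46) and without indisulam replicate 2 (-0.34).

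CEP290, which bridges microtubules and membrane in the transition zone (ENSG00000198707, chromosome 12, 88049016 to 88142099, minus strand), was at 38.3 and 38.1 CPM in the untreated A549 libraries, 35.3 and 37.2 with palbociclib, 49.4 and 47.9 with indisulam, 49.6 and 46.5 with the combination and 38.3 and 40.4 with PF-06873600. It was at 40 and 46.1 CPM in untreated SUM159 libraries and 35.8 and 36.3 with PF-06873600. Indisulam and combination libraries lay above all other A549 libraries, by 0.35 ± 0.07 (SE, adjusted p = 0.00132) and 0.33 ± 0.07 (SE, adjusted p = 0.00107) against untreated cells, and the combination against palbociclib gave 0.40 ± 0.07 (SE, adjusted p = 0.00025). These 3 calls held under every alternative tried. With PF-06873600 the value was 0.04 ± 0.07 (SE, adjusted p = 0.644) in A549 and -0.26 ± 0.08 (SE, adjusted p = 0.00817) in SUM159, the latter lost without untreated SUM159 replicate 2 (log2 -0.15). CEP290 overlaps C12orf29 on the opposite strand by 399 exon bases.

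RPGRIP1L, a scaffold of the transition zone (ENSG00000103494, chromosome 16, 53598153 to 53703938, minus strand), was at 27.5 and 27.5 CPM in the untreated A549 libraries, 36.3 and 32.6 with palbociclib, 32 and 31.9 with indisulam, 35.5 and 36 with the combination and 31.8 and 31.4 with PF-06873600. It was at 29.1 and 26.4 CPM in untreated SUM159 libraries and 26.9 and 27.6 with PF-06873600. All 8 treated A549 libraries lay above the untreated ones, and the SUM159 groups overlapped. The log2 fold change was 0.32 ± 0.08 (SE, adjusted p = 0.0134) with palbociclib, 0.22 ± 0.08 (SE, adjusted p = 0.0405) with indisulam, 0.38 ± 0.08 (SE, adjusted p = 0.000729) with the combination and 0.20 ± 0.08 (SE, adjusted p = 0.0469) with PF-06873600, the one member higher in all 4, beside 4.94% of all genes. Of these, only the combination call held under every alternative. The calls with indisulam and PF-06873600 each held in only 2 of 10 alternatives, and were lost without any 1 of their libraries or the untreated ones (log2 0.19 to 0.22). The palbociclib call was lost by DESeq2 (0.33), with only the groups compared (0.32) and without palbociclib replicate 1 (0.24). NPHP4, a nephrocystin of the gate whose exons KCNAB2 overlaps on the opposite strand by 212 bases, passed against untreated cells in SUM159 alone, at 0.54 ± 0.11 (SE, adjusted p = 0.000439).

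The response to PF-06873600, the 1 treatment given to both lines at the same dose and time, was then compared between them in 1 model of all 14 libraries. Of the 35 genes, 18 responded more positively in SUM159 than in A549 and 5 more negatively, 51.4% and 14.3%, beside 25.8% and 27.2% of the 17279 genes tested. The median difference of the members was 0.36 on the log2 scale, and that of all genes 0.04. BBS9 differed most, by 2.02 ± 0.20 (SE, adjusted p = 6.15e-08), followed by IFT27, 1.79 ± 0.22 (SE, adjusted p = 1.27e-06), IFT80, 1.23 ± 0.17 (SE, adjusted p = 5.77e-06), IFT20, 1.15 ± 0.10 (SE, adjusted p = 2.08e-08), and BBS2, 1.12 ± 0.12 (SE, adjusted p = 3.04e-07). In the other direction IFT88 differed by -1.02 ± 0.16 (SE, adjusted p = 1.89e-05) and IFT81 by -0.76 ± 0.11 (SE, adjusted p = 8.38e-06). Both RFX factors were lower in each line, and less so in SUM159, with differences of 0.67 ± 0.23 (SE, adjusted p = 0.0195) for RFX2 and 0.97 ± 0.17 (SE, adjusted p = 9.51e-05) for RFX3. The RFX2 difference was lost by DESeq2 (0.72) and without untreated A549 replicate 1 (log2 0.46), A549 PF-06873600 replicate 1 (0.57) or SUM159 PF-06873600 replicate 2 (0.66). Under every alternative tried, 13 of the 18 and 2 of the 5 (IFT81 and IFT88) stayed called, and the 5 became 2 without SUM159 PF-06873600 replicate 2, and 3 without replicate 1, A549 PF-06873600 replicate 1 or untreated SUM159 replicate 2. The same treatment thus left 7 members lower in A549 and higher in SUM159 (IFT20, IFT27, IFT80, DYNC2LI1, BBS2, BBS9 and TCTN1), 1 the reverse (IFT81), 4 lower in both (IFT74, TMEM216, RFX2 and RFX3) and 1 higher in both (TCTN3). These are 20%, 2.86%, 11.4% and 2.86% of the members, beside 9.3%, 10.5%, 11.8% and 13.4% of the 13607 genes tested in both lines. Of the 7, the DYNC2LI1 calls were each lost without 1 library, and of the 4 lower in both only TMEM216 stayed called under every alternative in both lines.

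**Figure D3:**
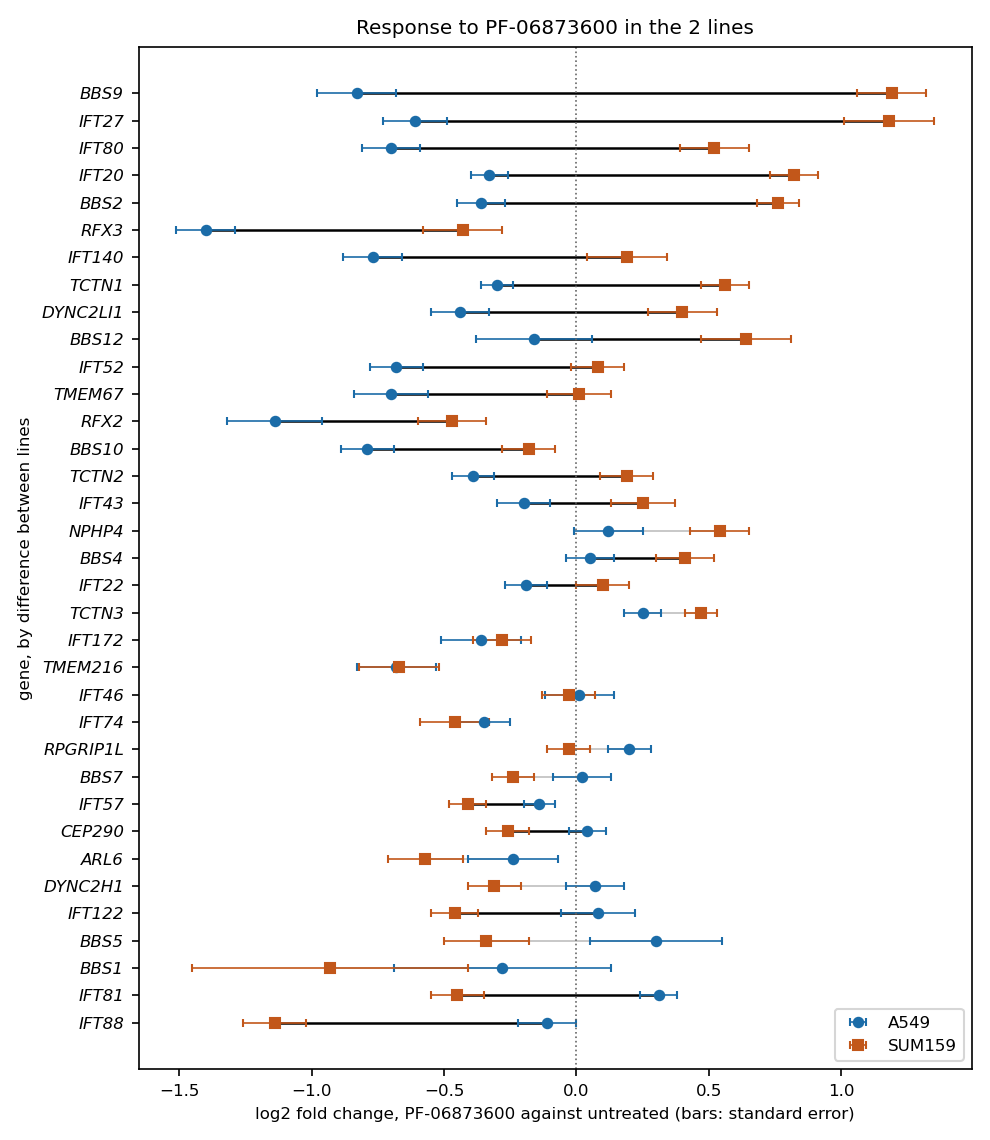
Log2 fold change with PF-06873600 against untreated cells in A549 (circles) and SUM159 (squares) for each of the 35 genes, with standard errors, ordered by the difference between the lines. A black line joins the pair where the difference passed the test, a grey line where it did not. BBS9 at the top runs from -0.83 in A549 to 1.19 in SUM159, and IFT88 at the bottom from -0.11 to -1.14.

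**Figure D4:**
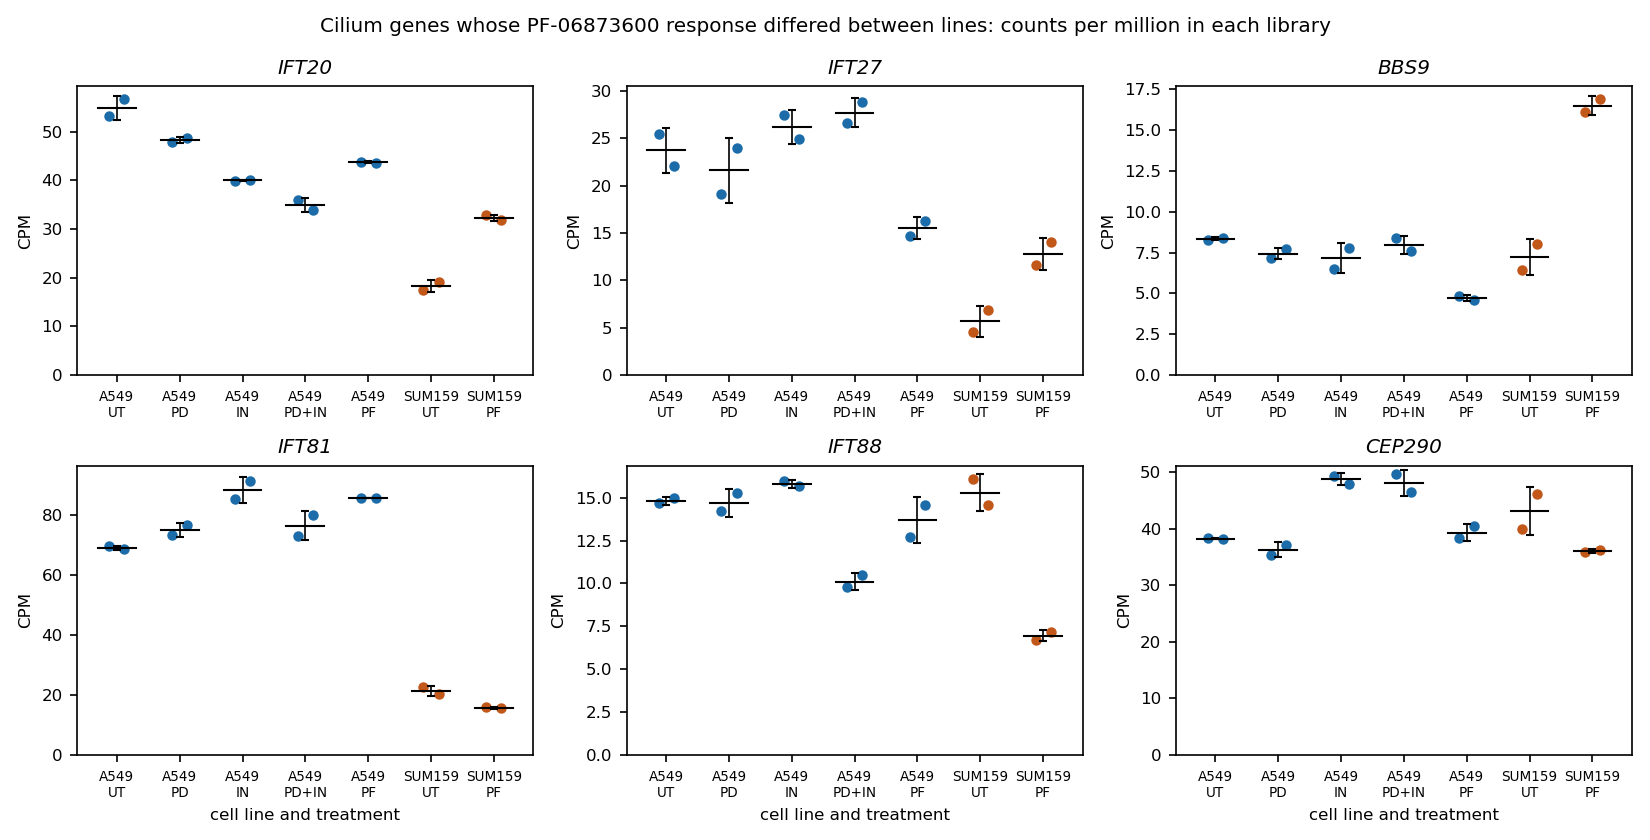
CPM in each of the 14 libraries of 6 genes whose response to PF-06873600 differed between the lines (UT untreated, PD palbociclib, IN indisulam, PF PF-06873600). Points are libraries, horizontal bars group means, error bars SD (n = 2). IFT20, IFT27 and BBS9 are lower with PF-06873600 in A549 and higher in SUM159, while IFT88 is lower with the combination in A549 and with PF-06873600 in SUM159.

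The lines already differed before treatment. In untreated SUM159, 5 of the 35 genes were higher and 19 lower than in untreated A549, 14.3% and 54.3%, beside 41.9% and 36.8% of all genes, with a median difference of -0.52 on the log2 scale. The lowest differences were those of IFT140, -2.48 ± 0.13 (SE, adjusted p = 8.55e-13), TCTN1, -2.42 ± 0.07 (SE, adjusted p = 1.55e-16), and IFT27, -2.07 ± 0.16 (SE, adjusted p = 6.54e-10). The highest were those of DYNC2H1, 2.02 ± 0.12 (SE, adjusted p = 1.19e-11), BBS5, 1.57 ± 0.20 (SE, adjusted p = 9.01e-07), and BBS7, 1.30 ± 0.09 (SE, adjusted p = 1.87e-10). All 7 genes that fell in A549 and rose in SUM159 with PF-06873600, BBS9 apart, started lower in SUM159, at log2 differences of -1.59 for IFT20, -2.07 for IFT27, -1.36 for IFT80, -1.18 for DYNC2LI1, -0.63 for BBS2 and -2.42 for TCTN1. Since the response and the starting level are taken from the same untreated libraries, these values are not independent. Per kilobase of annotated exon, IFT57 had the highest level of the 35 in both untreated lines (14.5 CPM per kb in SUM159) and BBS1 the lowest (0.157 CPM per kb in SUM159). In A549 IFT57 was followed by IFT20 and IFT52, and in SUM159 by TCTN3 and IFT52.

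Related genes outside the 35 were followed as lists, whose counts are to be read against the shares of all genes called: 35.1% higher and 30% lower with the combination, 28.5% and 27.8% with PF-06873600 in A549, and 38.1% and 35.6% in SUM159. Of 20 further IFT, motor and BBS genes tested, 2 were higher and 11 lower with the combination, 2 and 12 with PF-06873600 in A549, and 1 and 11 in SUM159. BBIP1, the smallest BBSome subunit, fell from 34.9 and 39.5 CPM to 11.1 and 10.5 under the combination, its log2 fold change being -1.78 ± 0.10 (SE, adjusted p = 1.34e-09). WDR35, an IFT-A subunit, fell from 38.2 and 40.7 CPM to 16.4 and 17.9 with PF-06873600 in SUM159, -1.20 ± 0.08 (adjusted p = 6.06e-09), and WDR34, an intermediate chain of dynein-2, from 92.9 and 84.4 CPM to 33.8 and 38.9, -1.28 ± 0.08 (adjusted p = 8.79e-10). Of the other transition zone and inversin genes, 1 was higher and 8 lower of 15 with the combination, 1 and 6 of 15 with PF-06873600 in A549, and 3 and 7 of 14 in SUM159. B9D1, of the same gate complex as the tectonics, fell from 70.2 and 64.4 CPM to 23 and 21.4 with the combination, -1.60 ± 0.10 (adjusted p = 3.2e-09). In the other direction, KIF17 of the first list was higher with the combination (log2 1.31). TMEM17 of the second was higher with PF-06873600 in SUM159 (log2 1.56).

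Genes that hold back or take down the cilium were followed beside the proliferation genes. Of 12 assembly inhibitors and disassembly genes, 1 was higher and 7 lower with the combination, 4 and 6 with PF-06873600 in A549, and 2 and 10 in SUM159, beside 30%, 27.8% and 35.6% of all genes that were lower. NEK2, a centrosomal kinase, was at 27.2 and 33.8 CPM in untreated A549 and 4.11 and 3.67 with the combination, -2.97 ± 0.14 (SE, adjusted p = 1.42e-10). KIF24, a kinesin that restrains cilium formation, was at 11.8 and 12.1 CPM against 4.61 and 4.57, -1.38 ± 0.13 (adjusted p = 2.2e-07). AURKA, the kinase that triggers disassembly, was at 152 and 144 CPM in untreated SUM159 and 46.7 and 42.4 with PF-06873600, -1.74 ± 0.06 (adjusted p = 4.61e-12). AURKA, PLK1 and NEK2 are also mitotic genes, and the part of the fall in proliferation genes in these values was not tested.

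Signalling genes showed no single direction. In the Hedgehog pathway, which vertebrate cells read through the cilium, 4 of 12 genes were higher and 4 lower with the combination, close to the shares of all genes (35.1% and 30%), and 2 were higher and 5 lower with PF-06873600 in A549. In SUM159, 5 of 11 Hedgehog genes tested were higher and 3 lower with PF-06873600. BOC, a co-receptor, rose from 3.87 and 3 CPM to 26.0 and 27.2 with the combination, 2.95 ± 0.15 (SE, adjusted p = 2.44e-10), whereas PTCH1, both receptor and target, fell from 6.12 and 7.27 CPM to 1.61 and 1.85 with PF-06873600 in A549, -1.94 ± 0.21 (adjusted p = 2.27e-06), and GLI1, a target and effector, from 5.17 and 3.6 CPM to 1.84 and 0.989, -1.66 ± 0.29 (adjusted p = 0.000219). Among ciliary membrane genes, 3 of 10 were higher and 4 lower with the combination, 1 and 1 with PF-06873600 in A549, and 5 and 3 in SUM159. With the combination GPR161, a receptor that restrains Hedgehog signalling, rose from 15.8 and 15.9 CPM to 32.8 and 33.0, 1.05 ± 0.09 (adjusted p = 7.94e-08). Of 12 basal body and distal appendage genes, 3 were higher and 3 lower with the combination, 5 and 2 with PF-06873600 in A549, and 3 and 8 in SUM159, where 38.1% and 35.6% of all genes were higher and lower. EHD1, which shapes the ciliary vesicle, rose from 75.2 and 64.0 CPM to 180.0 and 187 with PF-06873600 in A549, 1.40 ± 0.08 (adjusted p = 1.3e-09). RAB3IP and TTBK2 of the same list were lower there (log2 -1.13 and -0.85), and CEP164 was lower with PF-06873600 in SUM159 (-0.94).

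Genes of motile cilia served as a comparison. FOXJ1, the master regulator of motile ciliogenesis, and DNAI1, DNAI2, CCDC39, TEKT1 and SPAG6 had 3 reads or fewer in every library. Of 16 motile cilium genes listed, 8 could be tested in each line. With the combination 4 of the 8 were higher and none lower. PF-06873600 left 3 higher and 1 lower in A549, and 6 higher and 1 lower in SUM159, beside 35.1%, 28.5% and 38.1% of all genes that were higher. The filter can admit a gene nearly silent in untreated cells through the 1 treated group where it is high. The excess of higher genes may therefore be set in part by the filter, and no direction is read from it. DNAH5, an axonemal dynein heavy chain, rose from 3.62 and 4.07 CPM to 15.6 and 16.3 with PF-06873600 in SUM159, 2.05 ± 0.14 (SE, adjusted p = 3.87e-09).

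**Figure D5:**
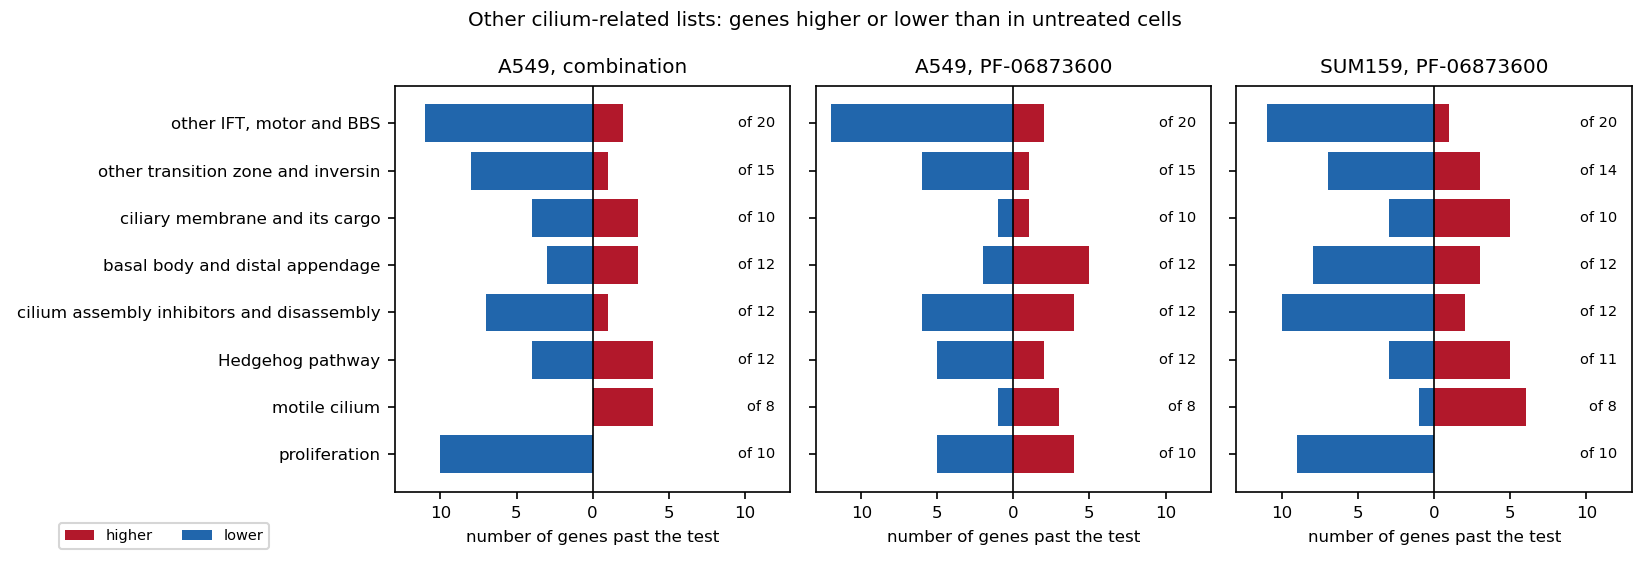
Number of genes of 8 further lists that were higher (red, to the right) or lower (blue, to the left) than in untreated cells at an adjusted p under 0.05, for the combination and PF-06873600 in A549 and PF-06873600 in SUM159. The number tested stands at the right. In the combination panel all 10 proliferation genes are lower, beside 11 of 20 further IFT, motor and BBS genes.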

How the data were processed

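RNA was sequenced from 14 libraries as single-end, stranded poly(A) reads. The deposited files hold raw read counts per gene, with no normalization. The submitters' processing notes list HISAT2 2.2.1, HTSeq and GRCh38. The annotation release and strand setting are not given in the sources used here. Of the 60683 gene rows, the 35 genes were found by symbol, and positions, exon lengths and overlaps came from GENCODE 44. The 137 genes of other lists were matched as well, 4 by an older symbol. The 9 closing lines of each file (unmapped, ambiguous reads and the like) were left out, ambiguous reads being 3.38 to 4% of reads on genes, ambiguous or on no gene.

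Counts were tested with edgeR 4.0.16 in R 4.3.3 (quasi-likelihood F test, filterByExpr, library scaling by total counts on genes, Benjamini-Hochberg adjustment over all genes tested, threshold 0.05): 1 model of the 10 A549 libraries, 1 of the 4 SUM159 libraries and 1 of all 14 for comparisons between lines. Standard errors were taken as the fold change (log2) over the root of the F value. The code was checked on simulated counts. Libraries of a group differed by more than sampling noise (chi-square per degree of freedom 1.4 to 6.52) and counted as separate. The highest values were those of the untreated pairs, 6.52 in A549 and 6.09 in SUM159, against 1.4 to 3.6 in the treated groups. Each fit shared 1 estimate of the spread over its groups, so errors against untreated cells may be too small. Levels of all 14 libraries are given for the 3 members called with the largest rises and the 3 with the largest falls in the combination, in PF-06873600 in each line and in the interaction, and for RFX2 and RFX3. From each other list, up to 4 genes with the largest change among those called were eligible for naming. Members and lists were chosen with earlier results of these data known. Alternatives were TMM factors, DESeq2 1.42.0, no filter, a filter at a mean of 50 counts, a fit of the compared groups alone, a replicate block and leaving out each library.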

Additional observations from a re-analysis of the deposited data

Results flagged for a closer look

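The response to PF-06873600 differed between SUM159 and A549 for 23 of the 35 genes by the test of the difference itself in the model of all 14 libraries (edgeR's quasi-likelihood test, adjusted p under 0.05). On the log2 scale, SUM159 minus A549, the response was lower in SUM159 for IFT88 (-1.02), IFT81 (-0.76), IFT122 (-0.54), CEP290 (-0.30) and IFT57 (-0.27). It was higher in SUM159 for the IFT-B genes IFT22 (0.30), IFT52 (0.75), IFT20 (1.15), IFT80 (1.23) and IFT27 (1.79), for the IFT-A genes IFT43 (0.45) and IFT140 (0.96), and for DYNC2LI1 of dynein-2 (0.84). Among BBS genes it was higher for BBS4 (0.36), BBS10 (0.61), BBS12 (0.80), BBS2 (1.12) and BBS9 (2.02), in the transition zone for TCTN2 (0.59), TMEM67 (0.71) and TCTN1 (0.85), and of the transcription factors for RFX2 (0.67) and RFX3 (0.97). In the same comparison 9 of 10 proliferation genes responded lower in SUM159, with a median of -1.38, and the part of this in the values above was not tested.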

How the results depend on the processing

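No member called in a comparison changed direction under any alternative. Of 1747 values, 1514 stayed called and 233 no longer passed. DESeq2 gave 0 members higher with palbociclib, 2 higher with indisulam, 2 higher for the combination against palbociclib, 0 higher and 5 lower for the combination against indisulam, 0 lower for the interaction, 3 lower for the difference between lines and 3 higher in untreated SUM159. TMM factors gave 2 higher with indisulam and 3 lower for the difference between lines. With only the groups compared, 0 were higher with palbociclib, and 2 higher and 5 lower with indisulam. Without a filter, 1 was higher for the combination against indisulam. The cause of these changes was not tested. Leaving out each library in turn gave 0 to 3 higher and 1 to 6 lower with palbociclib, 2 to 4 higher and 5 to 13 lower with indisulam, 3 to 5 higher with the combination, 8 to 12 lower for the combination against palbociclib, 0 to 0 higher and 4 to 7 lower against indisulam, 1 to 3 higher and 1 to 5 lower for the interaction, 2 to 5 lower for the difference between lines and 3 to 5 higher in untreated SUM159. Where that left a group with 1 library, this library was assumed to vary like the others.

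Replicate numbers are shared between groups, but nothing says that they pair libraries, and correlations of same-numbered deviations ran from -0.217 to 0.166. With the replicate block, 18 members were lower with the combination and 17 with PF-06873600 in A549, 12 were lower with indisulam and 2 for the interaction, and no count moved by over 1.5 times. A block with crossed numbers, added after seeing the data, gave 1 higher and 3 lower for palbociclib against untreated and 4 higher and 20 lower for untreated SUM159 against A549. Low counts limit BBS1 and BBS5 most.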
